A study of Mus musculus with 62 samples.

Results

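Cells of mouse reconstituted testes labelled m3 (2 libraries) were compared with cells labelled m0 (2 libraries), 4 libraries chosen by their sample titles out of 62 in the series. Both groups are called prospermatogonia-like cells in the labels and are germ cells derived from embryonic stem cells (ESCs). A reconstituted testis is an aggregate in which ESC-derived primordial germ cell-like cells are mixed with somatic cells of fetal testes. Here 10000 germ cell-like cells and 20000 somatic cells from ICR testes at E12.5, freed of their own germ cells, went into each well. The aggregates floated for 2 days in a medium with 10 µM forskolin and 10 µM rolipram, a pair of agents that raise cyclic AMP, and were then grown at a gas-liquid interphase. The m3 cells and the m0 cells carry the same 3 reporter transgenes, Prdm1-mVenusTg/0 with Dppa3-ECFPTg/0 and also mvh(Ddx4)-RFPTg/0, on a B6C3(Cg) × C57BL/6 background. The number after the letter m orders the samples along the culture, but the labels do not say what it counts, and the sources used here do not give the fluorescence gate for reconstituted testes. Nothing in the labels says that the 2 libraries of a group came from separate cultures, so each p-value below measures only the spread between libraries, which may be technical. For the culture's course, values are also given for cells sampled earlier (d4 and d4c5, primordial germ cell-like cells) and later (m5 to m14).

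Primordial germ cells are the founders of the germline. In the fetal testis, they switch on later germ cell genes, among them Ddx4 and Dazl, let go of the pluripotency network they share with stem cells, and become prospermatogonia. These cells then build the piRNA pathway, in which PIWI proteins loaded with small RNAs silence transposons. In the fetal ovary the same cells answer to retinoic acid with Stra8 and enter meiosis, a step that is normally held back in the fetal testis. Many of these germline genes have CpG-rich promoters that are kept silent in other cells by DNA methylation or by Polycomb complexes. Glycolysis turns glucose into pyruvate and lactate. Several of its enzymes, like Vegfa and Bnip3, are targets of hypoxia-inducible factor (HIF), which is stable when oxygen is low and binds DNA at the core ACGTG.

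The libraries held 1493521 and 2445172 reads in m3 cells, against 2027188 and 2452440 in m0 cells, within a series range of 1493521 to 5662007. In both groups library 1 had the smaller mitochondrial share, 3.29% in m3 and 4.97% in m0, while library 2 had 10.4% in m3 and 9.56% in m0. The m3 libraries stood further apart from each other than the m0 libraries did. At least a 2-fold gap between the libraries was seen in 2283 genes (20.1%) of m3 and in 1058 genes (9.59%) of m0, among genes with at least 10 reads. A gene was called when the edgeR quasi-likelihood test over all libraries gave a Benjamini-Hochberg adjusted p below 0.05 and a change of at least 2-fold, and only such genes are said to have risen or fallen. Levels are CPM, counts scaled to a common library size, after TMM scaling, a correction for differences in RNA composition. Log2 fold changes are m3 minus m0, with their standard error (SE).

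Of 16008 genes tested, 659 rose in m3 (4.12%) and 331 fell (2.07%), together 6.18%, and the median log2 fold change of all genes was 0.04. The balance between higher and lower differed with the libraries in the fit, and the cause was not tested. With the m3 and m0 libraries alone, 185 genes were higher and 228 lower, and 184 and 204 of these were shared with the calls above. Leaving out any single library also moved the higher count, the lower count or both by over 1.5 times. They were 276 higher and 212 lower without m3 library 1, 930 and 821 without m3 library 2, 429 and 344 without m0 library 1, and 306 and 261 without m0 library 2. In bulk RNA, fewer cells of a kind and less RNA per cell cannot be told apart.

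**Figure D1:**
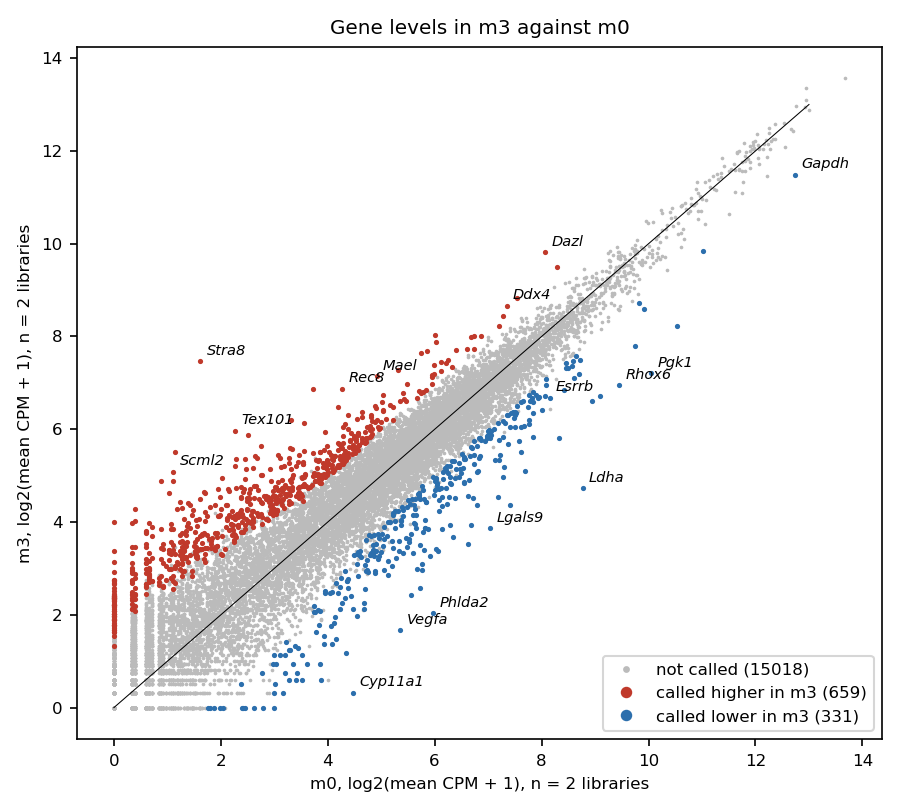
Each point is 1 of 16008 genes, with log2(mean CPM + 1) in m0 on the x axis and in m3 on the y axis (2 libraries each), red where called higher in m3 (659 genes) and blue where called lower (331 genes). Stra8 and Tex101 stand far above the diagonal of equal levels, and Ldha, Vegfa and Phlda2 far below it.

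Glycolysis genes were lower and germline genes higher in m3 cells than in m0 cells. Of 19 glycolysis genes, 15 fell in m3 and none rose, with a median log2 fold change of -1.82. Of 36 meiotic prophase genes, 20 rose and none fell (median 1.57), and of 25 piRNA and transposon defence genes 12 rose and 1 fell (median 1.902). Of 25 genes of primordial germ cells and pluripotency, 6 fell and none rose (median -0.62). By contrast, none of 28 mitosis genes, 39 oxidative phosphorylation genes or 23 cholesterol synthesis genes was called by edgeR, DESeq2 or limma on log2(RPM + 1). At an unadjusted edgeR p below 0.05, the mitosis list had 1 gene higher and 10 lower in m3, the oxidative phosphorylation list 4 and 3, and the cholesterol list 1 and 2. These lists were drawn up with results of these data known, so their counts are a description beside the 4.12% and 2.07% called over all genes.

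**Figure D2:**
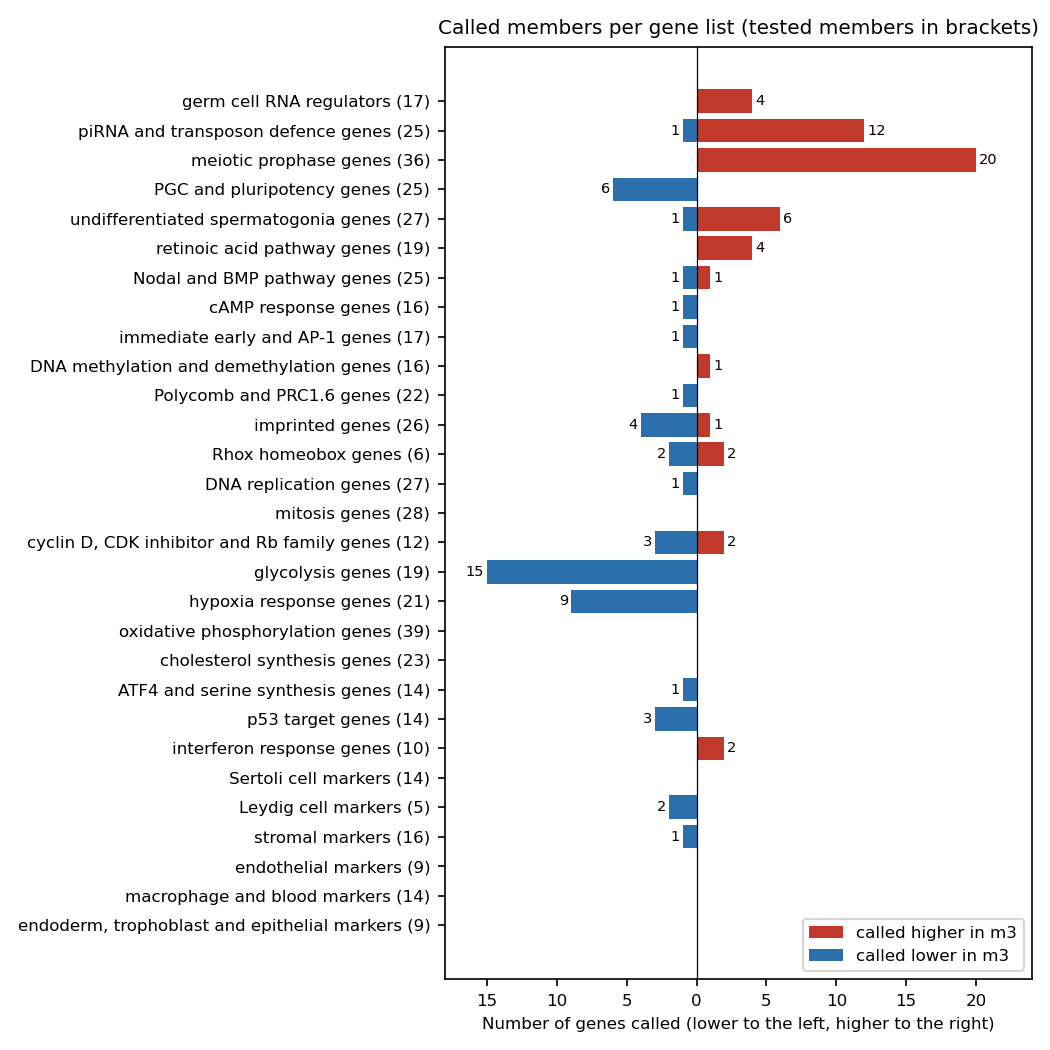
Bars give, for each of 29 gene lists, the number of members called higher in m3 (red, to the right) and called lower in m3 (blue, to the left), with the number of members tested in brackets. The long red bars belong to meiotic prophase (20) and piRNA genes (12), and the long blue bars to glycolysis (15) and hypoxia response genes (9).

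Glycolysis fell along nearly its whole length. Ldha, which makes lactate from pyruvate, had 26.3 and 24.7 CPM in m3 cells, against 455 and 416 CPM in m0 cells. It fell by 4.10 on the log2 scale (SE 0.30, edgeR adjusted p = 9.28e-14), and the libraries of each group lay close together and far from those of the other. Phosphoglycerate kinase, Pgk1, had 145 and 148 CPM in m3, against 1113 and 994 CPM in m0, with a log2 fold change of -2.84 (SE 0.40, edgeR adjusted p = 1.03e-05). The triose phosphate isomerase gene Tpi1 had 63.7 and 45.9 CPM in m3, against 327 and 315 CPM in m0 (log2 fold change -2.57, SE 0.38, edgeR adjusted p = 1.46e-05). At the entry of the pathway, the glucose transporter gene Slc2a3 had 111 and 83.2 CPM in m3, against 494 and 491 CPM in m0 (-2.36, SE 0.51, edgeR adjusted p = 0.00234). The rate-setting phosphofructokinases Pfkp (-3.09) and Pfkl (-2.76) fell as well, and so did the lactate exporter gene Slc16a3 (-2.81). For Pfkp, the m3 libraries had 17.8 and 21.2 CPM and the m0 libraries 197 and 142 CPM. Even Gapdh, which is often used as a constant reference, fell to 3382 and 2372 CPM in m3, against 7368 and 6280 CPM in m0 (-1.25, SE 0.24, edgeR adjusted p = 0.000341). None of these genes overlapped between groups, as was so for 2632 of all 16008 tested genes with the lower level in m3. Ldha and Pfkp were picked from called genes without overlap, so for them this is no further result.

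The 4 glycolysis genes that were not called were Slc2a1 (log2 fold change -1.49, edgeR adjusted p = 0.121), Gpi1 (-0.60, edgeR adjusted p = 0.0412), Slc16a1 (-0.64) and the muscle-type phosphofructokinase Pfkm (0.39). Summed over the list, the level was 6485 and 4328 CPM in m3, against 16226 and 13755 CPM in m0. Between 14 and 16 of the 19 genes were called lower under each of 15 other settings. The calls of Eno1 and Pkm were lost without m3 library 2 (Eno1 -0.99 with edgeR adjusted p = 0.0763, Pkm -0.72), and that of Hk2 without m0 library 2 (-0.94, edgeR adjusted p = 0.297) or m3 library 1 (-1.26, edgeR adjusted p = 0.128). Several of these genes, Gapdh, Pgk1, Tpi1, Ldha and Eno1 among them, have near-identical processed pseudogenes with which reads could be shared, so their absolute levels are uncertain.

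**Figure D3:**
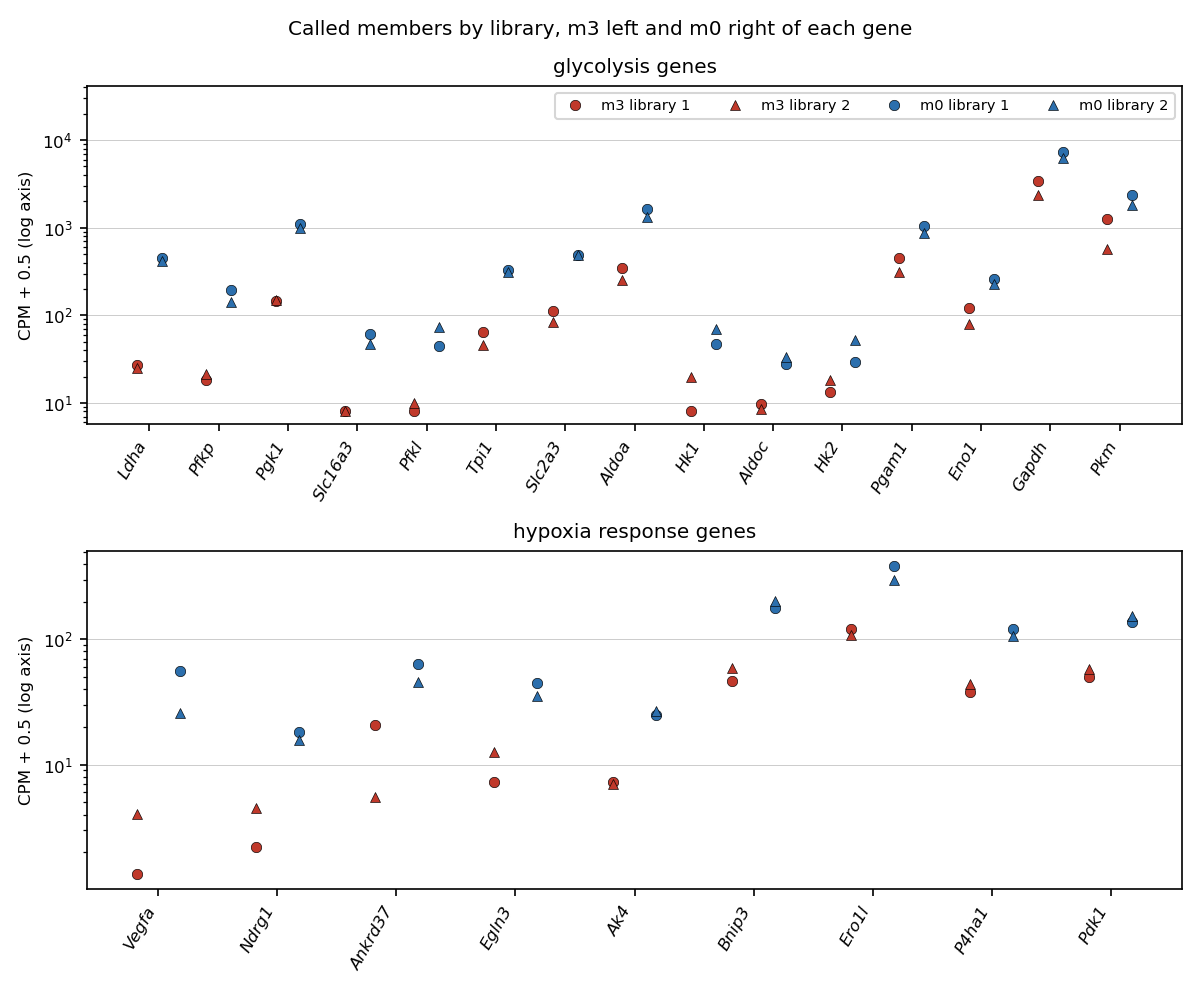
CPM + 0.5 on a log axis for the called members of the glycolysis list (15 genes, top) and the hypoxia response list (9 genes, bottom), with both m3 libraries (red) left of both m0 libraries (blue) of each gene. The m3 points lie below the m0 points for every gene shown.

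Genes of the hypoxia response fell beside them, 9 of 21 tested, with a median of -1.07. Vegfa, the vascular growth factor and a textbook HIF target, had 0.849 and 3.53 CPM in m3, against 54.9 and 25.1 CPM in m0 (-3.98, SE 0.62, edgeR adjusted p = 5.54e-06). Egln3, an oxygen-sensing prolyl hydroxylase that marks HIF for destruction, had 6.80 and 12.1 CPM in m3, against 44.0 and 34.5 CPM in m0 (-1.98, SE 0.45, edgeR adjusted p = 0.0018). Pdk1, which keeps pyruvate out of the mitochondria, had 49.3 and 57.5 CPM in m3, against 137 and 154 CPM in m0 (-1.44, SE 0.24, edgeR adjusted p = 1.53e-05). In each of these the groups stood apart, as in 2632 of all 16008 tested genes with the lower level in m3. Vegfa was picked from called genes without overlap, so for it this is no further result. P4ha1 (-1.46), Ero1l (-1.58) and Ak4 (-1.92) were also called lower. So were the mitophagy gene Bnip3 (-1.84), Ndrg1 (-2.38) and Ankrd37 (-2.25), but Bnip3 (edgeR adjusted p = 0.0637) and Ndrg1 (0.0968) were not called without m3 library 1. Ankrd37 was called only with both m0 libraries and m3 library 2 in the fit (edgeR adjusted p = 0.0637 to 0.303 without 1 of them). The gene of the factor itself, Hif1a, had 91.7 and 159 CPM in m3, against 83.6 and 133 CPM in m0, and was not called (0.22). Oxidative phosphorylation, the other route to ATP, had a list median of 0.12. Its 2 most abundant members, Atp5g1 and Atp5b, had log2 fold changes of 0.48 and -0.03.

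The promoters of the falling glycolysis genes are shown because ACGTG is the core that HIF binds. RefSeq promoter windows of 300 bases (250 before to 50 after the start, GRCm38.p6) were searched on both strands, in which each CACGTG also holds the shorter motif. The shorter motif was found outside CACGTG in 13 of 18 glycolysis genes with a window (72.2%). The hypoxia response list had it in 12 of 18 genes (66.7%). Both lists hold known HIF targets, so high shares follow in part from how the lists were drawn up. Whether HIF had a part in the fall was not tested. Among called members with a window, it was found in 10 of 14 glycolysis genes and 5 of 8 hypoxia response genes. By comparison, it was found in 2420 of 12732 tested genes with a window and in 13.6% of all 32851 windows. Over all genes lower in m3 with a window it was found in 49 of 256, near the share of tested genes. The median number of CpG was 22.5 and 26 in the 2 lists, against 20 in tested genes and 7 in all windows, and the part of CpG content in these shares was not tested. In the sequences below capitals mark ACGTG on either strand. The window of Ldha printed here, 1 of 2 in the table, lies at chr7:46845554-46845853 on the plus strand and that of Pgk1 at chrX:106186850-106187149 on the plus strand.
Ldha: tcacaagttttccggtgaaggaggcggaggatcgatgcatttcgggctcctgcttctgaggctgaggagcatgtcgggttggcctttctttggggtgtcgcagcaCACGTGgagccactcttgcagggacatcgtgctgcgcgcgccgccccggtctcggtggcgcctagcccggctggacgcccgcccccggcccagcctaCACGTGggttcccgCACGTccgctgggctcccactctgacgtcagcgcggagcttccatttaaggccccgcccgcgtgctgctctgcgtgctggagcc
Pgk1: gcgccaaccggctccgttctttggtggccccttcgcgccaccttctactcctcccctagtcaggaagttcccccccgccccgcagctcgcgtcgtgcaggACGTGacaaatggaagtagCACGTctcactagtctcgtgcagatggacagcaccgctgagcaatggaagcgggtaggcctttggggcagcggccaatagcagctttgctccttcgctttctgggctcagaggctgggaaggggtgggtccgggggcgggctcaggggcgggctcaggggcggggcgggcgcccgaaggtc

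Germ cell identity genes rose in part. Ddx4, the vasa RNA helicase, had 340 and 470 CPM in m3 cells, against 156 and 167 CPM in m0 cells (log2 fold change 1.33, SE 0.19, edgeR adjusted p = 5.56e-07). Dazl, an RNA-binding protein that licenses germ cells for sexual development, had 469 and 1338 CPM in m3, against 218 and 315 CPM in m0 (1.76, SE 0.42, edgeR adjusted p = 0.00607). The groups did not overlap for either gene, as was so for 3466 of all 16008 tested genes with the higher level in m3. However, the m3 libraries lay far apart for Dazl. Its call was lost without m3 library 2 (0.81, edgeR adjusted p = 0.258) and without m0 library 1 (1.48, edgeR adjusted p = 0.11). Library 2 was the higher one for Dazl in m3 and in m0, and it was also the one with the larger mitochondrial share, whose part in this was not tested. The helicase gene Ddx25 (1.54) and the Tudor-domain gene Stk31 (1.32) rose too, so that 4 of 17 germ cell RNA regulators were called (median 0.75). Nanos2, which fixes the male fate of fetal germ cells, was close to 0 in both groups, with 2.55 and 0.504 CPM in m3 and 1.92 and 0 CPM in m0. Dnd1, Nanos3 and Lin28a were not called.

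Among the piRNA genes, the PIWI proteins themselves rose. Piwil2 (MILI) had 191 and 116 CPM in m3, against 37.7 and 40.3 CPM in m0 (1.96, SE 0.20, edgeR adjusted p = 7.93e-11). Piwil4 (MIWI2), the nuclear partner that directs silencing, had 11.04 and 7.06 CPM in m3, against 0.639 and 0.523 CPM in m0, or 13 and 14 reads against 1 and 1 (3.81, SE 0.74, edgeR adjusted p = 0.000222). Products of Tudor-domain genes scaffold PIWI proteins in germ granules. Of those on the list, Tdrd1, Tdrd7 and Tdrd9 rose, while Tdrd5 (0.70), Tdrkh (0.34) and Tdrd12 (-0.22) were not called and Tdrd6 had 0 reads in all 4 libraries. Tdrd7 had 51.0 and 28.7 CPM in m3, against 5.11 and 2.62 CPM in m0 (3.34, SE 0.37, edgeR adjusted p = 9.75e-10). Tdrd1 had 76.5 and 21.2 CPM in m3, against 5.11 and 6.28 CPM in m0 (2.98, SE 0.39, edgeR adjusted p = 4.56e-07). The log2 fold change of Tdrd1 was 1.82 without m3 library 1, which held the higher level.

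Mael, a piRNA biogenesis gene, had 163 and 119 CPM in m3, against 33.2 and 25.1 CPM in m0 (2.27, SE 0.20, edgeR adjusted p = 4.8e-13). Tex101, a germ cell surface protein gene on the same list, had 75.6 and 47.9 CPM in m3, against 4.47 and 3.14 CPM in m0 (3.995, SE 0.30, edgeR adjusted p = 1.8e-15). All of these values of m3 lay above those of m0, as in 3466 of all 16008 tested genes. Tex101, and Tdrd7 above, were picked from called genes without overlap, so for them this is no further result. Gpat2 (1.902), Exd1 (2.32), Tdrd9 (2.80), Gtsf1 (2.83), Mov10l1 (1.19) and Piwil1 (3.28) made up the 12. Of these, Gpat2 had a log2 fold change of 1.24 without m3 library 1. Tdrd9, Gtsf1, Mov10l1 and Piwil1 were each lost without 1 or more single libraries, which left 8 to 15 of the list called. The 1 gene that fell was Morc1, which silences transposons in male germ cells. It had 12.7 and 10.1 CPM in m3, against 47.9 and 42.4 CPM in m0 (-2.01, SE 0.26, edgeR adjusted p = 1.48e-07).

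Several of these promoters carry CACGTG, the E-box that MGA and MAX bind in the PRC1.6 Polycomb complex. It was found, on both strands, in 10 of 31 meiotic prophase genes with a window (32.3%), against 11.2% of tested genes and 7.15% of all windows. TTCCCGC, an E2F6-type motif, was found in 12 of 31 (38.7%), against 9.05% of tested genes and 4.60% of all windows. In the piRNA list, CACGTG was found in 7 of 19 genes with a window (36.8%), but TTCCCGC in only 1 of 19 (5.26%). Among called members with a window, CACGTG was found in 5 of 17 meiotic and 5 of 11 piRNA genes. For TTCCCGC the numbers were 7 of 17 and 0 of 11. Over all genes higher in m3 with a window the shares of CACGTG and TTCCCGC were 14.8% and 10.6%, near those of tested genes. Whether PRC1.6 had a part in these changes was not tested. The median CpG number was 18 in the meiotic list and 22 in all genes higher in m3 with a window, against 20 in tested genes and 7 in all windows. The windows of 3 genes that rose are printed with CACGTG in capitals. Ddx4 lies at chr13:112652261-112652560 on the minus strand, Mael at chr1:166238695-166238994 on the minus strand and Slc25a31, a germ cell ADP/ATP carrier gene of the meiotic list, at chr3:40708621-40708920 on the plus strand.
Ddx4: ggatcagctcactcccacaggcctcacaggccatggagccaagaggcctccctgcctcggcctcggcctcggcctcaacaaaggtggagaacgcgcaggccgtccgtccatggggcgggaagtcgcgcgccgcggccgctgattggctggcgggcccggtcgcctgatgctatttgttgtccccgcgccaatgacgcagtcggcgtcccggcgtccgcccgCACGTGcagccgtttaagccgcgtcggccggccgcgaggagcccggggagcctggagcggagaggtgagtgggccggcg
Mael: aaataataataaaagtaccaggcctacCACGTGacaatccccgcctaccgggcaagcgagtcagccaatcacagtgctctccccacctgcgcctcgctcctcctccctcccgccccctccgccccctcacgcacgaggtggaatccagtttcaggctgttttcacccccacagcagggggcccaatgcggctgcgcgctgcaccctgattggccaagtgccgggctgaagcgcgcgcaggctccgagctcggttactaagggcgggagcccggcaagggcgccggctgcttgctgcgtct
Slc25a31: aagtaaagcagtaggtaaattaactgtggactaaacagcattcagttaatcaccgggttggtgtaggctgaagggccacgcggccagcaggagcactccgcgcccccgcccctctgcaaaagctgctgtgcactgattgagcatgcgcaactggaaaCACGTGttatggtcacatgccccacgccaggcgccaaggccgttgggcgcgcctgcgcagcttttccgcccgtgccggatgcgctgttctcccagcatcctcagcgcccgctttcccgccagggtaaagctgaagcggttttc

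The 20 meiotic prophase genes that rose in m3 ran from the entry into meiosis to parts of the chromosome axis. Stra8, the retinoic acid-responsive gene that starts the meiotic programme, lies at chr6:34920163-34939344. It had 117 and 237 CPM in m3 cells, against 2.55 and 1.57 CPM in m0 cells, or 138 and 470 reads against 4 and 3. Its log2 fold change of 6.44 (SE 0.72, edgeR adjusted p = 2.24e-07) was the highest among called genes without overlap and with at least 20 CPM on the higher side. Genes known only by a number (Gm and Rik names) were left out of this ranking. Rec8, the meiotic cohesin subunit and another retinoic acid-responsive gene, had 150 and 83.2 CPM in m3, against 22.3 and 14.1 CPM in m0 (2.67, SE 0.29, edgeR adjusted p = 4.12e-10). Smc1b, another meiotic cohesin gene, had 185 and 285 CPM in m3, against 74.1 and 54.4 CPM in m0 (1.89, SE 0.27, edgeR adjusted p = 2.8e-06). In all these genes, both m3 libraries lay above both m0 libraries, as in 3466 of all 16008 tested genes. Stra8 was picked from called genes without overlap, so for it this is no further result.

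Parts of the synaptonemal complex, the protein zipper between paired chromosomes, rose from low levels. Syce1 had 86.6 and 69.6 CPM in m3, against 21.1 and 18.3 CPM in m0 (1.98, SE 0.21, edgeR adjusted p = 2.85e-10). Tex12 (2.72) and Syce3 (3.95) were called higher, and Syce3 had 20 and 39 reads in m3 against 4 and 0 in m0. Slc25a31, whose promoter is printed above, had 105 and 126 CPM in m3, against 10.2 and 14.1 CPM in m0 (3.23, SE 0.21, edgeR adjusted p = 1.32e-18). Majin, a gene of the machinery that ties telomeres to the nuclear envelope, had 6 and 16 reads in m3 and 0 in both m0 libraries (edgeR adjusted p = 9.63e-05). The intercellular bridge gene Tex14 (1.32) and Zcwpw1 (1.41), a reader of the histone marks set by PRDM9, also rose. Sycp1, whose product forms the transverse filaments of the complex, differed between the m3 libraries, with 0.849 and 33.8 CPM, against 1.28 and 4.18 CPM in m0, and was not called. Of the genes of recombination itself, some were called on weak support and others were not called. Spo11, which makes the DNA breaks, had 113 and 33.8 CPM in m3, against 26.2 and 18.3 CPM in m0. It was called higher (1.69, SE 0.41, edgeR adjusted p = 0.00379), but its call was lost without m3 library 1 (0.56, edgeR adjusted p = 0.613) or m0 library 2 (1.37, edgeR adjusted p = 0.115). Mei1, which the breaks also need, was called on 3 and 5 reads in m3, against 0 in both m0 libraries. Dmc1 had 7.64 and 16.6 CPM in m3, against 3.83 and 7.32 CPM in m0 and was not called. Prdm9 stayed below 5 CPM in all 4 libraries.

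Without single libraries the number of meiotic genes called lay between 11 and 16. Sycp2, Sycp3, Hormad2, Mei1, Hspa2, Terb2 and Meioc each lost their call in 3 or 4 of these 4 fits. Meioc rested on m3 library 2 (22.7 CPM, against 1.70 CPM in m3 library 1), without which its log2 fold change was 0.24. Stag3 and Taf7l were lost as well, Stag3 without m3 library 1 (0.70) or m0 library 2 (0.67) and Taf7l without m3 library 2 (1.94, edgeR adjusted p = 0.108). Apart from Stra8 and Rec8, the retinoic acid list rose in 2 of its 19 tested genes. The receptor gene Rxra had 20.4 and 25.2 CPM in m3, against 5.11 and 7.32 CPM in m0 (1.87, SE 0.34, edgeR adjusted p = 6.84e-05). Stra6, a retinol transporter gene, had 14 and 18 reads in m3, against 2 and 1 in m0, and was not called without 1 of 3 libraries (edgeR adjusted p = 0.0958 to 0.251).

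**Figure D4:**
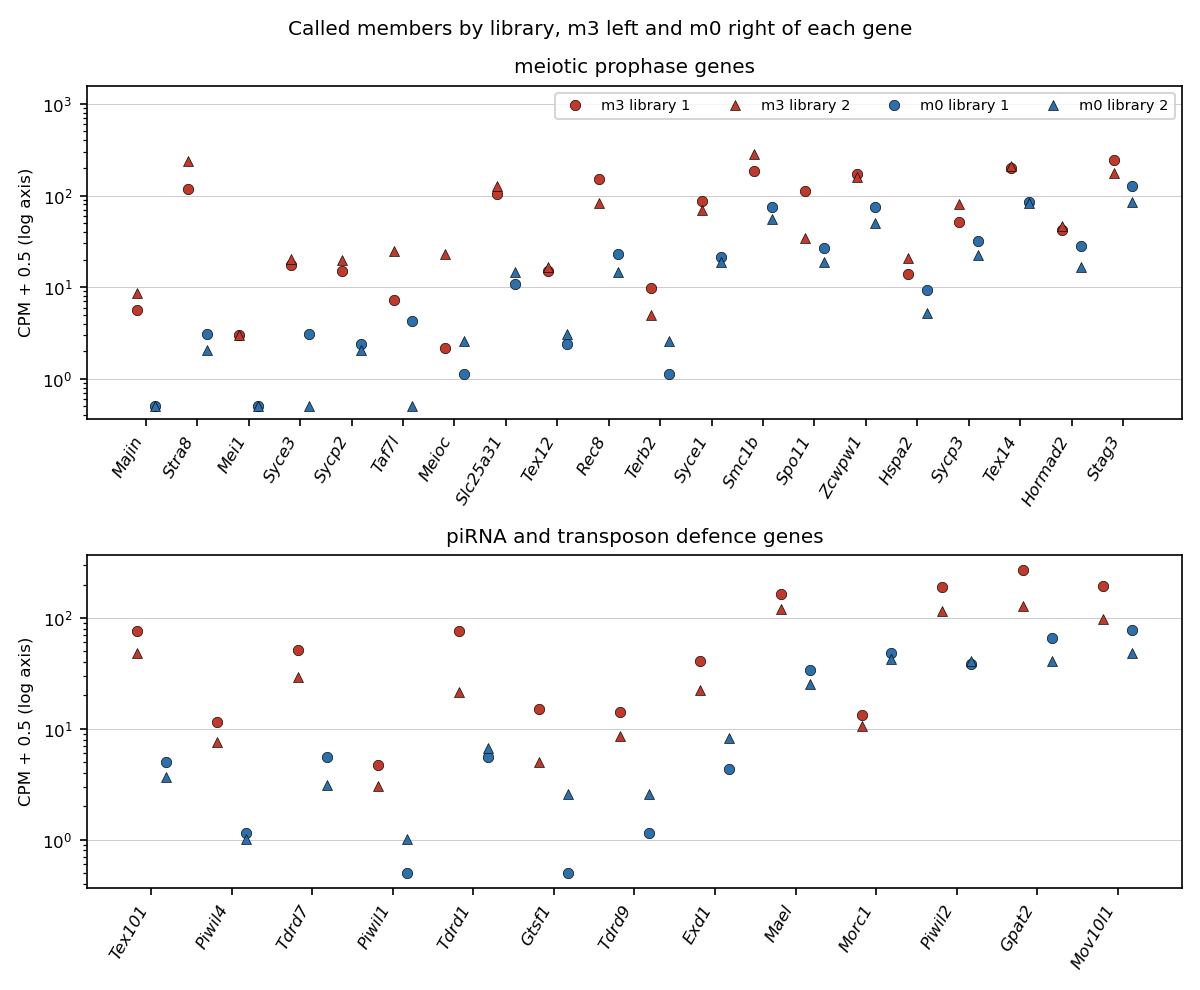
CPM + 0.5 on a log axis for the called members of the meiotic prophase list (20 genes, top) and the piRNA and transposon defence list (13 genes, bottom), with both m3 libraries (red) left of both m0 libraries (blue) of each gene. The m3 points lie above the m0 points except for Morc1, which is lower in m3, and Meioc, where the groups overlap.

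In the list of primordial germ cell and pluripotency genes the 6 calls were all lower in m3. This count was 2 without m3 library 1 or m0 library 2, and 10 without m3 library 2. Esrrb, an orphan nuclear receptor of that network, had 102 and 101 CPM in m3, against 309 and 258 CPM in m0 (-1.48, SE 0.30, edgeR adjusted p = 0.000412). It kept its call without each single library. Nanog had 46.7 and 116 CPM in m3, against 135 and 215 CPM in m0 (-1.07, SE 0.33, edgeR adjusted p = 0.0291), and was lost without m3 library 1 (-0.64, edgeR adjusted p = 0.404) or m0 library 2 (-0.75, edgeR adjusted p = 0.33). The same libraries held up the calls of Tfap2c (-1.05), a germ cell specifier, and Zfp42 (-1.07). For Zfp42 the groups overlapped, with 26.3 and 87.2 CPM in m3, against 82.4 and 166 CPM in m0. Dppa2 (-1.22) was lost without m3 library 1 or either m0 library, and Klf2 (-1.07) without m3 library 2 or m0 library 1. Pou5f1 had 108 and 254 CPM in m3, against 282 and 395 CPM in m0 and did not reach a 2-fold change (-0.88, edgeR adjusted p = 0.0134). It was called lower without m3 library 2 (-1.65). Dppa3, whose reporter these cells carry, had 2162 and 1487 CPM in m3, against 1674 and 1468 CPM in m0 (0.21, edgeR adjusted p = 0.858). Prdm1 had 54.4 and 116 CPM in m3, against 101 and 148 CPM in m0 (-0.52). Whether transcripts of the Ddx4, Dppa3 and Prdm1 reporters add to the counts of these genes was not tested.

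Signalling and homeobox genes of early germ cells moved in both directions. Lefty1, an inhibitor and target of Nodal, had 566 and 341 CPM in m3, against 200 and 170 CPM in m0 (1.29, SE 0.29, edgeR adjusted p = 0.00292), but was not called without m3 library 1 (0.83) or m0 library 2 (1.11, edgeR adjusted p = 0.0801). Msx2, a BMP target, had 2 and 3 reads in m3, against 25 and 30 in m0 (-3.28, SE 0.70, edgeR adjusted p = 0.000763). These were the only calls among 25 Nodal and BMP genes. The X-linked homeobox gene Rhox6 had 87.5 and 158 CPM in m3, against 736 and 656 CPM in m0 (-2.48, SE 0.29, edgeR adjusted p = 9.22e-08). Its neighbour Rhox9 had 135 and 308 CPM in m3, against 792 and 927 CPM in m0 (-1.94, SE 0.28, edgeR adjusted p = 3.9e-06). Both pairs of groups stood apart, as in 2632 of all 16008 tested genes with the lower level in m3. Rhox13, a later germ cell member, had 24.6 and 24.2 CPM in m3, against 8.94 and 6.80 CPM in m0 (1.64, SE 0.36, edgeR adjusted p = 0.00125), and was lost without m0 library 2 (edgeR adjusted p = 0.0666). Rhox10 (2.45) rose on at most 13 reads per library and was lost without m3 library 1 or m0 library 2.

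Imprinted genes, which are read from 1 parental copy, fell in 4 of 26 tested and rose in 1. Phlda2, a placental growth restrainer, had 1.70 and 4.54 CPM in m3, against 58.1 and 65.4 CPM in m0 (-4.15, SE 0.46, edgeR adjusted p = 1.35e-09). The maternally expressed RNA Meg3 had 9.34 and 4.54 CPM in m3, against 39.0 and 61.2 CPM in m0 (-2.96, SE 0.48, edgeR adjusted p = 3.16e-05). Both genes were picked from called genes without overlap between the groups, so their lack of overlap is no further result. H19 (-2.61) and Igf2r (-1.03) were each lost without m3 library 1 or m0 library 2. Cdkn1c, a CDK inhibitor gene, had 42.5 and 26.2 CPM in m3, against 12.8 and 5.23 CPM in m0 (1.93, SE 0.37, edgeR adjusted p = 0.000237), and was not called without m0 library 2 (1.32, edgeR adjusted p = 0.0685).

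The list of undifferentiated spermatogonia had 27 tested genes, and 6 were called higher and 1 lower in m3, with 2 higher without m0 library 2. Sohlh2, a germ cell transcription factor gene, had 123 and 126 CPM in m3, against 52.99 and 34.5 CPM in m0 (1.52, SE 0.24, edgeR adjusted p = 4.67e-06). Dmrt1, a regulator of testis and germ cell fate, had 111 and 113 CPM in m3, against 56.2 and 46.5 CPM in m0 (1.13, SE 0.18, edgeR adjusted p = 4.67e-06), and fell short of 2-fold without m0 library 2 (0.94). Ret, the co-receptor of GDNF, rose to 11 and 12 reads in m3, against 0 and 2 in m0 (edgeR adjusted p = 0.000307). The stem cell genes Gfra1 and Zbtb16 had at most 1 read in any of these libraries, and Nanos2, Foxc2 and Pax7 had at most 3. Lhx1, Pou3f1 and Rhox10 were called higher and Cd9 lower (-1.06), but each of these was lost without 2 or more single libraries.

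Few genes of mitosis and replication were called, but 5 of 12 cyclin D, CDK inhibitor and Rb family genes were. None of 28 mitosis genes was called in the fit with every library, but 8 were called lower without m3 library 2. Mki67, a marker of cycling cells, had 154 and 277 CPM in m3, against 342 and 346 CPM in m0 (-0.66, edgeR adjusted p = 0.094), and was called lower (-1.16) without m3 library 2. Of 27 replication genes, Rrm2, a subunit of ribonucleotide reductase, fell to 29.7 and 99.8 CPM in m3, against 197 and 196 CPM in m0 (-1.53, SE 0.29, edgeR adjusted p = 0.000298), with a log2 fold change of -2.72 without m3 library 2. The cyclin gene Ccnd3 had 154 and 162 CPM in m3, against 372 and 349 CPM in m0 (-1.19, SE 0.19, edgeR adjusted p = 5.54e-06), with closely matching libraries. On its list, Cdkn1c and Cdkn2c (2.61) rose and Ccnd2 (-1.76), Ccnd3 and Cdkn1a (-1.06) fell, with a list median of -0.11. Cdkn2c had 16 and 11 reads in m3, against 3 and 2 in m0, and both it and Ccnd2 were lost without 3 of the 4 single libraries. Uhrf1, the partner of maintenance DNA methylation, had 14.4 and 37.3 CPM in m3, against 5.75 and 8.37 CPM in m0 (1.94, SE 0.34, edgeR adjusted p = 4.28e-05). It was the 1 call among 16 DNA methylation genes and was lost without m3 library 2 (1.01, edgeR adjusted p = 0.135).

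The remaining lists had 0 to 3 calls each. Among the p53 targets Cdkn1a (-1.06), Eda2r (-1.80) and Perp (-1.31) fell, and each was lost without m3 library 1 and also without m0 library 2. Single genes fell in the lists of cyclic AMP response (Crem, -1.32), immediate early response (Ier3, -1.67), ATF4 response (Asns, -1.12) and Polycomb (Phf19, -1.14), and all 4 were lost without 1 or more single libraries.

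Outside these groups, some genes with the largest changes were regulators of chromatin or transcription. Scml2, an X-linked Polycomb-related gene of the male germline, had 18.7 and 47.4 CPM in m3, against 1.28 and 1.05 CPM in m0 (4.87, SE 0.52). Tcfl5, a germ cell bHLH factor gene, had 75.6 and 39.8 CPM in m3, against 5.75 and 3.66 CPM in m0 (3.59, SE 0.28). Bnc1, a zinc finger gene of germ cells and keratinocytes, had 26.3 and 14.1 CPM in m3, against 0.639 and 2.61 CPM in m0 (3.45, SE 0.49). Rasd2 (5.15), Lonrf2 (4.56), the WNT modulator gene Sfrp2 (4.31) and Rhpn1 (3.70) completed the 10 highest with Stra8, Tex101 and Tdrd7.

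At the other end stood Cdyl2, a chromodomain gene, with 4.25 and 4.54 CPM in m3, against 50.4 and 41.8 CPM in m0 (-3.37, SE 0.41). The galectin gene Lgals9 had 16.1 and 11.1 CPM in m3, against 142 and 119 CPM in m0 (-3.29, SE 0.51). Rgcc, a cell cycle and complement-response gene, had 5.10 and 16.1 CPM in m3, against 111 and 83.2 CPM in m0 (-3.08, SE 0.43), and the histone gene H2bc4 fell by 2.97. These genes were picked from called genes without overlap between the groups, so their lack of overlap is no further result. Genes on the X chromosome made up 42 of 659 higher calls (6.37%) and 23 of 331 lower calls (6.97%), against 611 of 16008 genes tested (3.82%).

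Somatic cells are the other possible source of RNA in a reconstituted testis, and some of their markers were lower in m3. Of 5 Leydig cell markers tested, 2 fell, and both act in steroid synthesis. Cyp11a1 had 0 and 1 reads in m3, against 23 and 53 in m0 (edgeR adjusted p = 0.000254). Star had 8.49 and 4.54 CPM in m3, against 18.52 and 38.2 CPM in m0 (-2.19, edgeR adjusted p = 0.0152), and was lost without m3 library 2 or m0 library 2. Summed over the list, Leydig markers had 9.34 and 6.55 CPM in m3, against 39.6 and 90.5 CPM in m0, and Insl3 was at 0 in all 4 libraries.

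None of 14 Sertoli markers tested was called by edgeR or DESeq2, while limma on log2(RPM + 1) called 1 higher, and at an unadjusted edgeR p below 0.05 there was 1 in each direction. Their median log2 fold change was -0.49. Without overlap 3 lay higher and 3 lower in m3, beside 3466 and 2632 of all 16008 tested genes. Their sum was 963 and 970 CPM in m3, against 815 and 1022 CPM in m0, with Clu as a large share of it. Clu had 606 and 504 CPM in m3, against 391 and 432 CPM in m0 (0.43). Inha, the next most abundant, went the other way, with 102 and 95.8 CPM in m3, against 161 and 176 CPM in m0 (-0.77). The defining Sertoli gene Amh had 0 reads in all 4 libraries, while Sox9 had 5.95 and 27.7 CPM in m3, against 12.8 and 34.5 CPM in m0. The 16 stromal markers summed to 688 and 946 CPM in m3, against 1123 and 1446 CPM in m0, with 1 of them, Igfbp5, called lower (-2.27) and lost without m3 library 1 or m0 library 2. Endothelial markers summed to 121 and 122 CPM in m3 and to 169 and 153 CPM in m0, most of it from Pecam1, which germ cells also express. Macrophage and blood markers stayed at or below 20.4 CPM in sum in all 4 libraries. The part of somatic RNA in the results above was not tested.

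The neighbouring steps of the culture place these changes in time. The comparisons m0 against d4c5 and m5 against m3 share libraries with m3 against m0, so the values are given side by side and no relation between them is computed. In m0 against d4c5, 366 genes rose (2.29%) and 82 fell (0.512%), and in m5 against m3, 1819 rose (11.4%) and 675 fell (4.22%). For glycolysis, the same 19 genes gave 10 higher and 0 lower in m0 against d4c5, 0 higher and 15 lower in m3 against m0, and 1 higher and 2 lower in m5 against m3. Ldha averaged 245 CPM in d4, 15.0 in d4c5, 435 in m0, 25.5 in m3 and 37.0 in m5 (n = 2 each), so that m0 held a peak. Pgk1 averaged 549, 415, 1053, 147 and 56.7 CPM in the same order. The hypoxia list had 5, 0 and 3 genes higher and 0, 9 and 2 lower in the 3 successive steps. Cyp11a1 and Star also peaked at m0, with averages of 0 and 0 CPM in d4c5, 21.2 and 28.3 in m0, and 0.252 and 6.52 in m3. Other somatic markers were higher in m0 against d4c5 too, 12 of 14 for Sertoli cells and 2 of 16 for stroma, but 0 of 9 for endothelium. The part of somatic RNA in the peak of glycolysis genes at m0 was not tested.

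The germline lists had higher calls in each of the 3 steps. Of 25 piRNA genes 5 were higher in m0 against d4c5, 12 in m3 against m0 and 18 in m5 against m3, and for 36 meiotic genes the numbers were 3, 20 and 24. These were not the same genes throughout. Rec8 (0.19), Spo11 (0.14) and Hormad2 (0.47) were called in m3 against m0 and not in m5 against m3. Tex14 missed only the 2-fold cut in m5 against m3 (0.89, edgeR adjusted p = 9.49e-05), with averages of 207 CPM in m3 and 384 in m5. Mael averaged 18.6 CPM in d4c5, 29.2 in m0, 141 in m3, 918 in m5 and 1187 in m7. Tex101 averaged 4.18 CPM in d4c5, 3.80 in m0, 61.7 in m3 and 435 in m5. Piwil4 averaged 0.581 CPM in m0, 9.05 in m3 and 334 in m5. Dazl, in contrast, averaged 20.4 CPM in d4c5, 267 in m0, 904 in m3 and 839 in m5, and was called in the first 2 of these steps only. Stra8 averaged 2.06 CPM in m0, 177 in m3, 394 in m5 and 106 in m7. Morc1 dipped at m3, with 54.5 CPM in d4c5, 45.1 in m0, 11.4 in m3 and 177 in m5, and was called in m3 against m0 and in m5 against m3. Cdyl2 and Phlda2 also had their lowest mean of d4 to m14 at m3.

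**Figure D5:**
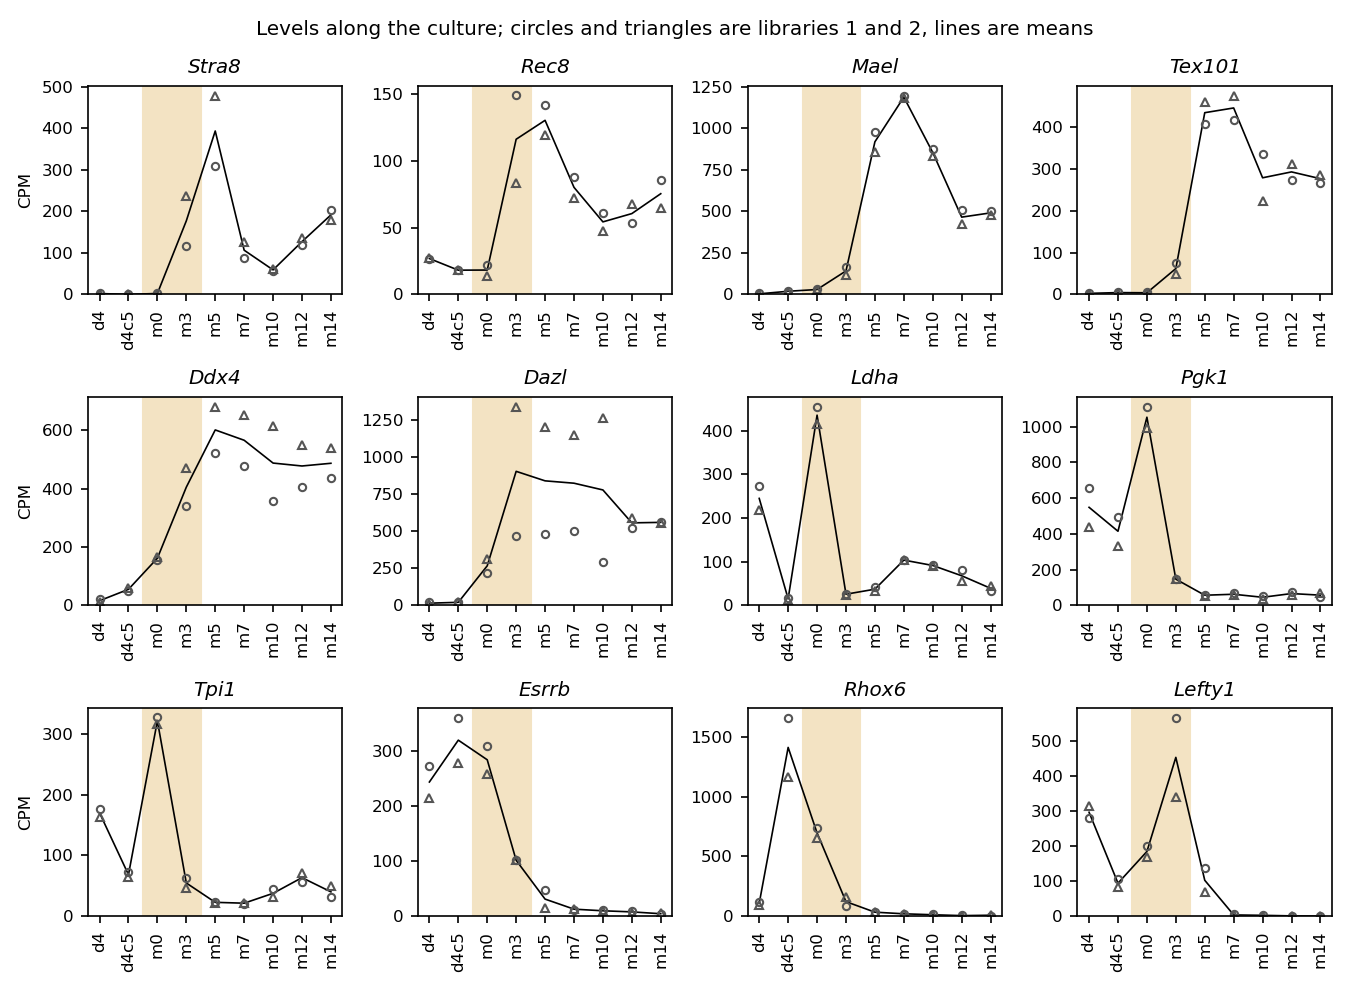
Levels in CPM of 12 genes along the culture, in the order d4, d4c5, m0, m3, m5, m7, m10, m12 and m14, with a circle for library 1, a triangle for library 2, a line through the means and the step from m0 to m3 shaded. Ldha, Pgk1 and Tpi1 peak at m0, Lefty1 peaks at m3, and Mael and Tex101 reach high levels at m5 and m7.

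Of 25 pluripotency genes tested, 0 were lower in m0 against d4c5, 6 in m3 against m0 and 13 in m5 against m3. Esrrb averaged 319 CPM in d4c5, 284 in m0, 102 in m3 and 31.3 in m5. Rhox6 averaged 1410 CPM in d4c5, 696 in m0, 123 in m3 and 34.9 in m5, and was called lower in each of the 3 steps. Lefty1 averaged 94.6 CPM in d4c5, 185 in m0, 453 in m3, 103 in m5 and 4.10 in m7. Meiotic and pluripotency genes were thus measured together in m3 libraries, with Stra8 at 177 CPM and Nanog at 81.6 CPM on average, and bulk RNA does not tell whether in the same cells.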

How the data were processed

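Each library read transcript 3′ ends from 1 ng of total RNA, per the labels' protocols. Per the submitters' processing notes, the genome build was GRCm38.p6 and the tools were HTSeq 0.9.1, Bowtie2 2.2.7, TopHat2 2.0.11 and cutadapt 1.9.1. Their settings and gene models are not given in the labels. Deposited read counts per gene were used as they stand. Of the rows, 35914 were nuclear genes; 13 mitochondrial genes, 96 spike-ins, 5 transgene sequences and 10 genes blank in every library stayed out of library sizes and tests. RPM was computed from the counts over nuclear genes.

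The test was edgeR 4.0.16 (R 4.3.3), quasi-likelihood with robust estimation, 1 coefficient for each of 31 groups over 62 libraries and TMM scaling. A gene was tested if 2 or more libraries reached 5 RPM. Standard errors are the absolute log2 fold change over the root of F. Calls needed a Benjamini-Hochberg adjusted p below 0.05 and a log2 fold change of at least 1. DESeq2 1.42.0, limma 3.58.1 with pseudocounts, other scalings, filters and sets of libraries, a replicate block and leaving out single libraries were alternatives. RefSeq promoter windows (GRCm38.p6) were matched by gene ID.

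The groups, lists and genes were chosen with earlier results of these data known. Named were the 10 highest and 10 lowest of called genes without overlap and with at least 20 CPM on the higher side, up to 6 called members of each list, or 2 abundant ones where none was called, and Ddx4, Dazl, Dppa3, Prdm1, Nanog, Pou5f1 and Mki67. Genes known only by a number (Gm and Rik names) were left out of the highest and lowest. Any other gene in the text was picked once its values had been seen. Not every gene named by this rule is reported here.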

Additional observations from a re-analysis of the deposited data

Results flagged for a closer look

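Reads on a transgene polyadenylation sequence named SV40, which no comparison above uses, were far above the level in germ cells taken from mice. They came to 3298 and 2239 RPM (scaled to the reads of nuclear genes) in the m3 libraries and to 3705 and 2671 RPM in the m0 libraries, against 0 to 0.87 RPM in 20 in vivo libraries. Along the culture the ranges were 222 to 239 RPM in d4, 2044 to 2935 in d4c5, 1076 to 1934 in m5, 115 to 164 in m7 and 11.4 to 21.7 in m14 (2 libraries each). The BGH sequence had 69.8 and 31.4 RPM in m3 and 99.9 and 51.6 RPM in m0, and the EF1a sequence 17.1 and 20.3 RPM in m3 and 24.6 and 23.8 RPM in m0. Their in vivo ranges were 11.6 to 53.5 and 12.6 to 76.9 RPM. The labels do not tie these sequences to constructs.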

How the results depend on the processing

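The number of genes called higher in m3 against m0 was 1054 with limma on log2(RPM + 0.5), 389 with a pseudocount of 5, 185 with the 4 libraries alone, 229 with the 18 cultured libraries and 276 to 930 without single libraries. Lower calls numbered 162 with the 18 cultured libraries and 212 to 821 without single libraries. In the labels, libraries of m3 and m0 share only a replicate number, which the main fit did not use. In both groups library 1 also had the smaller mitochondrial share and the larger share of spike-in reads. The spike-in shares were 2.36% and 0.94% in m3 and 2.36% and 0.967% in m0. The differences of library 1 minus library 2 in m3 and in m0 correlated at 0.345 across 16008 genes. With the number as a block and 4 libraries, 448 genes were higher and 534 lower, so that 45.6% of calls were higher. That share was 44.8% with 4 libraries and no block, and 66.6% in the main fit. For m5 against m3, higher calls numbered 2807 with a pseudocount of 0.5, 907 with 4 libraries, 986 with 18 and 1268 to 1770 without single libraries, and lower calls 339 with a pseudocount of 5, 449 with 4 libraries and 499 to 852 without single libraries. For m0 against d4c5, higher calls numbered 592 and 702 with pseudocounts of 1 and 0.5, 209 with 18 libraries and 188 to 283 without single libraries, and lower calls 151 and 150 with these pseudocounts, 23 with 18 libraries, 150 with the block and 49 to 117 without single libraries. The other settings moved these counts by less than 1.5 times, and the cause of the shifts was not tested. Of 1701 values of 114 called genes under 15 alternatives, 1449 kept the call, 252 lost it and 0 changed sign. Dppa3, which was not called, had a log2 fold change of -0.13 without m3 replicate 1 and of 0.46 without m3 replicate 2. Genes with under about 20 reads per library, such as Piwil4, Majin and Ret, are the least precise, and with 2 libraries a group the spread rests on few values.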
